A study of Mus musculus with 6 samples.

Results

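The genes described here are those named for proteins of the mitochondrial ribosome. They were chosen by name: every gene whose symbol is Mrpl (large subunit) or Mrps (small subunit) followed by a number, with or without a final letter, and no pseudogenes. The rule gave 77 genes of 30403 measured symbols, 48 for the large and 29 for the small subunit, on 17 chromosomes. One more symbol of this form, Mrpl53, was not among the measured identifiers. RNA-seq came from 4 libraries of C57BL/6 mouse bone marrow cells sorted for long-term haematopoietic stem cells, or LT-HSCs (negative for lineage markers, CD34 and Flk2, positive for Sca1 and cKit). The mice were wild type or Twist1 cKO, a conditional knockout of the transcription factor gene Twist1, and cells were taken at steady state or 12 days after irradiation. With 1 library for each genotype and condition there was no replicate error, so no test was made, and single genes carry counting intervals instead. The Cre driver, the radiation dose, the age and sex of the mice and how many were pooled are not given in the labels.

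The libraries held between 20346504 (cKO, irradiated) and 25099317 (wild type, steady state) reads in genes, recovered from the deposited FPKM (fragments per kilobase of gene per fixed number of mapped fragments, a level scaled for gene length and library size). The sorted identity was checked on 14 stem cell markers. All 14 were above 1 FPKM in both steady-state libraries, but 9 were below 1 FPKM in the irradiated wild-type library and 8 in the irradiated cKO library. Procr, a surface receptor used to sort stem cells, was at 51.3 and 66.1 FPKM in the steady-state libraries (wild type, cKO) against 0.334 and 1.22 FPKM in the irradiated ones, and the transcription factor Hlf at 17.4 and 17.7 FPKM against 0.0608 and 0.102 FPKM. The irradiated libraries therefore lack most transcripts that define LT-HSCs, and they are called irradiated libraries below, not stem cells. The steady-state libraries expressed the stem cell markers, but this does not show that they were free of other cells. In both of them the erythroid, neutrophil, macrophage and B and plasma cell markers each summed to more FPKM than the stem cell markers. Only the T and NK cell markers summed to less. Xist was at 0.0171 and 0.0155 FPKM at steady state and at 1.003 and 0.573 FPKM after irradiation, and the Y-linked Ddx3y was at 10.2 and 12.4 FPKM against 0.0521 and 0.0164 FPKM, so irradiation cannot be told apart from the sex of the mice in these libraries. Twist1 was at 0.143 and 0.0490 FPKM at steady state and at 0.140 and 0 FPKM after irradiation, which is too low to check the deletion.

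Mitochondria carry ribosomes of their own, which translate only the few messages encoded by mitochondrial DNA, all for subunits of the respiratory chain and ATP synthase. The ribosomal RNAs come from mitochondrial DNA, whereas every protein of the particle is encoded in the nucleus, made in the cytosol and imported. Many of the proteins descend from the bacterial ribosome, and others are found only in mitochondria. Resting haematopoietic stem cells are known for low protein synthesis and little use of oxidative phosphorylation, and both increase as cells begin to divide and mature.

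All 77 genes were expressed in every library. Their levels ran from 4.36 to 525 FPKM in the wild-type steady-state library, from 3.75 to 433 FPKM in the cKO steady-state library, from 5.76 to 1505 FPKM in the irradiated wild-type library and from 3.50 to 922 FPKM in the irradiated cKO library. Against all measured genes the lowest member stood at the 74.4 to 81.1 percentile, by library, and the median member at the 93.7 to 96.0 percentile. The median level was 40.8 and 35.9 FPKM at steady state (wild type, cKO) and 85.9 and 57.5 FPKM after irradiation. Together the genes took 0.763% of all reads in genes in the wild-type steady-state library (95% Clopper-Pearson interval 0.760 to 0.767%) and 0.718% (0.714 to 0.721%) in the cKO one. After irradiation they took 1.59% (1.586 to 1.595%) in wild type and 1.26% (1.25 to 1.26%) in cKO. The irradiated libraries thus gave these genes the larger share, and within each condition the cKO library gave them the smaller share of reads. As a share of summed FPKM the values were 0.790, 0.838, 2.04 and 1.42%, so at steady state the order of the genotypes turns with the measure. These intervals, like all those below, cover counting error only.

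The order of the genes by level was nearly the same in all libraries: Spearman's rho over the 77 genes lay between 0.962 and 0.997 for the 6 pairs of libraries. Mrpl42, a large subunit protein without a bacterial counterpart, was the most abundant per length, at 525, 433, 1505 and 922 FPKM (wild type and cKO at steady state, then wild type and cKO after irradiation, the order used wherever 4 values are given). Mrps16, a small subunit protein of bacterial descent, followed at 230, 184, 673 and 385 FPKM, and Mrpl36, Mrpl34 and Mrpl28 had mean levels of 318, 256 and 230 FPKM. At the other end stood Mrpl33 at 4.36, 3.75, 5.76 and 3.50 FPKM. It was followed by Mrps34, Mrps35, Mrps9 and Mrps5, with mean levels of 7.71, 9.79, 11.6 and 13.5 FPKM. Mrpl42 was the highest and Mrpl33 the lowest of the 77 in every library.

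**Figure D1:**
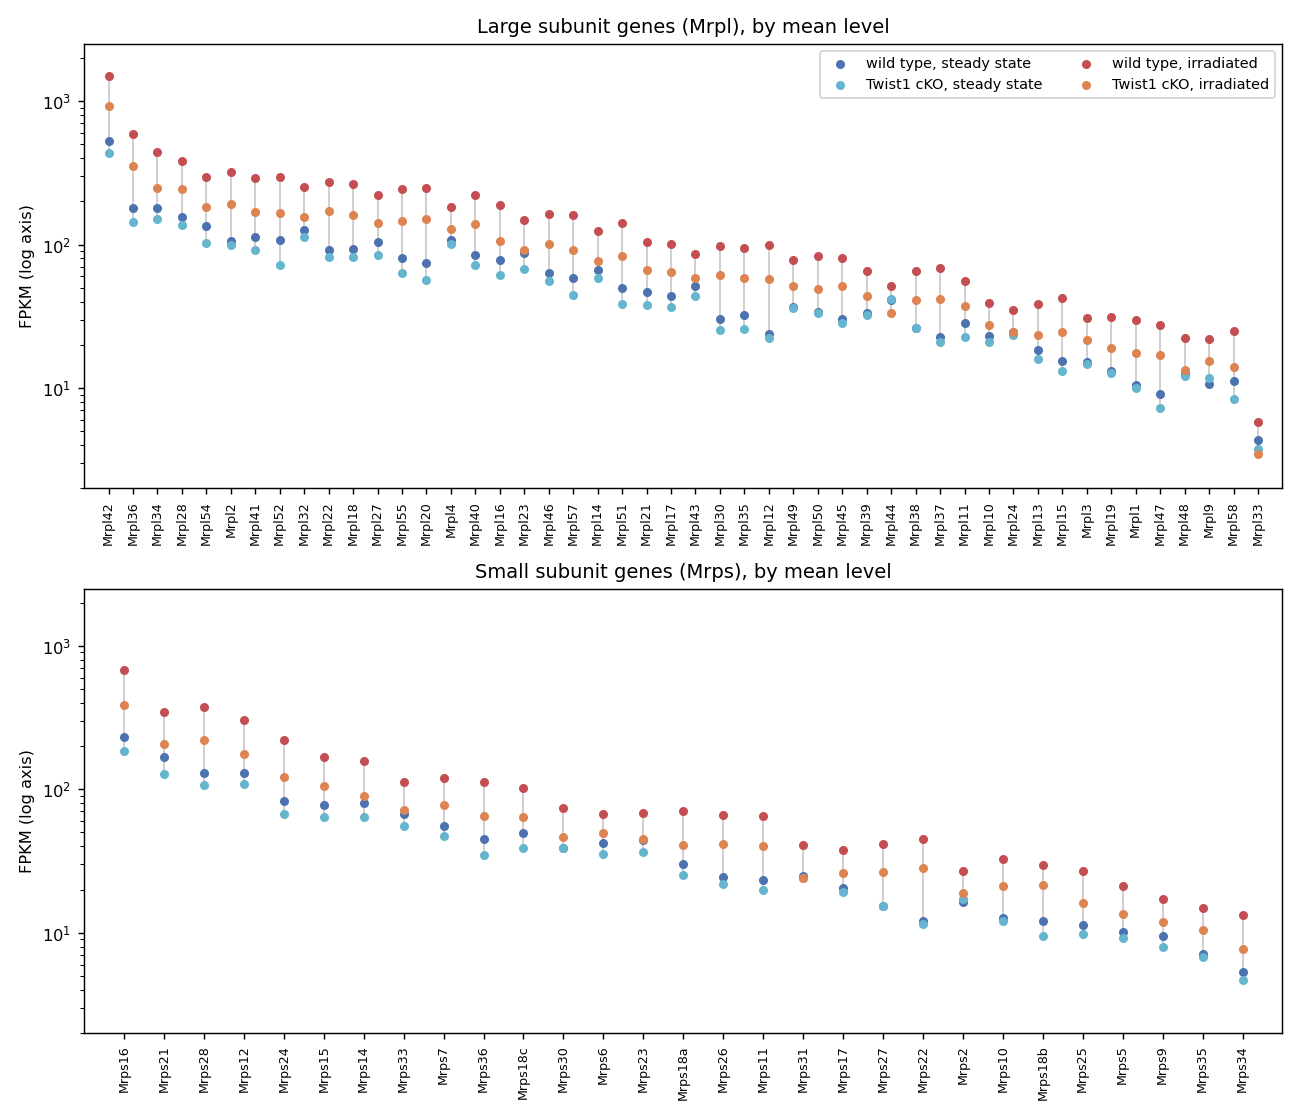
FPKM (log axis) of each of the 48 large subunit and 29 small subunit genes in the 4 libraries, ordered by mean level. Each point is 1 library and each grey line spans the 4 values of a gene. The irradiated wild-type library is the highest for all 77 genes on the deposited scale.

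Levels went with the length of the gene model, the number of bases over which reads were counted: rho was -0.824 across the 77 genes. Mrps16 (566 bases) and Mrpl42 (666 bases) have short models and Mrpl33 (7326 bases) and Mrps35 (8631 bases) long ones, although the proteins are all small. FPKM divides by this length, so the order of levels among these genes carries the annotation's lengths as well as the amount of RNA. Of the 77 genes, 24 overlap another annotated gene, 19 of them a protein-coding one. The sources used here do not say whether reads were assigned by strand, so reads of such pairs may not be separable.

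The median large subunit gene was expressed above the median small subunit gene in all libraries. The medians were 45.1 against 30.1 FPKM in the wild-type steady-state library, 38.2 against 25.2 FPKM in the cKO one, 100.2 against 67.2 FPKM in the irradiated wild-type library and 63.0 against 41.7 FPKM in the irradiated cKO one. The ratio of these medians stayed between 1.49 and 1.51. The ratio of summed FPKM, which Mrpl42 weighs on, went from 2.24 and 2.29 at steady state (wild type, cKO) to 2.44 and 2.49 in the irradiated libraries. The ratio of means was 1.35, 1.38, 1.48 and 1.51. Mrps30 and Mrps18a are named for the small subunit, but structures of the mammalian particle place both in the large one. With these 2 genes moved, the ratio of medians became 1.70, 1.60, 1.5 and 1.45. From steady state to irradiation the balance of the subunits therefore held by medians under the gene names, climbed by means and sums, and dropped by medians under the structures, so its direction depends on the measure and on 2 genes.

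Irradiation gave the widest differences. In wild type, 74 of the 77 genes were at least 1.5-fold higher in the irradiated library on the log2(FPKM + 1) scale and none was lower, beside 34.9% higher and 26.9% lower among all 7418 genes kept (at least 5 FPKM in the higher library). The median difference in log2(FPKM + 1) was 1.18 (interquartile range 0.96 to 1.42, lowest 0.33, highest 2.02), beside 0.21 over all genes kept, and all 77 lay above that median of all genes. By ratio of FPKM the genes were between 1.26 and 4.17 times as high, with a median of 2.37, and the 95% counting interval of the ratio lay above 1 for all 77. The spread among the members, an SD of 0.34, was narrow beside an SD of 1.46 among all genes kept. Under 5 other scalings of the libraries the median of all genes moved between -0.32 and 0.83, and relative to it the members stood between 0.93 and 1.13. Scaled by the upper quartile, 59.6% of all genes were called higher and 15.4% lower, and with the 50 most abundant genes left out 18.3% and 40.7%, while the members called higher numbered between 57 and 77 and those lower 0.

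The gene that rose most in wild type was Mrpl12, which forms the flexible stalk of the large subunit that brings translation factors to the ribosome. It was at 24.0, 22.2, 99.9 and 57.5 FPKM, from 955, 858, 3389 and 2064 reads, so both irradiated libraries lay well above both steady-state ones. The irradiated wild-type level was 4.17 times the steady-state level (95% interval 3.88 to 4.49), and the ratio in cKO was 2.59 (2.39 to 2.81). The other stalk genes, Mrpl10 and Mrpl11, which make its base, were 0.73 and 0.95 higher in log2(FPKM + 1) in wild type against 2.02 for Mrpl12.

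Mrps22, a small subunit protein without a bacterial counterpart, came next at 12.0, 11.4, 45.2 and 28.3 FPKM, a ratio of 3.76 (3.53 to 4.01) in wild type. Mrpl20, an early-binding protein of the large subunit in bacteria, was at 74.0, 56.6, 248 and 150 FPKM, a ratio of 3.35 (3.21 to 3.49). Mrpl36, a very small large subunit protein of bacterial descent, was at 180, 145, 592 and 354 FPKM, a ratio of 3.29 (3.18 to 3.41). In all of these the 4 libraries stood in the order irradiated wild type, irradiated cKO, wild type at steady state, cKO at steady state, as they did for 69 of the 77 genes.

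The 3 genes that did not reach 1.5-fold in wild type were Mrpl44, Mrpl33 and Mrpl24. Mrpl44, which has a ribonuclease III fold and lies near the exit of the nascent protein, was at 40.8, 42.1, 51.6 and 33.3 FPKM. Mrpl33 differed by 0.33 and Mrpl24, a protein at the exit of the tunnel, by 0.49 in log2(FPKM + 1), and Mrps23, the next lowest, by 0.63. Across the 7 genes of the exit region (Mrpl17, Mrpl22, Mrpl23, Mrpl24, Mrpl39, Mrpl44 and Mrpl45) the median was 0.95 and 5 were called higher. Among all genes kept the median was 0.21, with 34.9% called higher and 26.9% lower. Mrpl22, which lines the tunnel, was the highest of them at 91.4, 81.3, 271 and 172 FPKM.

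In cKO, 49 of the 76 genes kept were at least 1.5-fold higher in the irradiated library and none was lower, beside 20.8% higher and 34.6% lower among all 7393 genes kept. The median difference was 0.71 (interquartile range 0.50 to 0.94) in log2(FPKM + 1), beside -0.20 over all genes, and 75 of 76 lay above that. Under the other scalings the median of all genes moved between -0.37 and 0.85, and the members stood between 0.868 and 0.997 above it. Against genes of their own mean level the members stood 1.05 higher under 20 FPKM. They stood 0.54 higher from 20 to 50 FPKM, 0.56 from 50 to 100 FPKM and 0.38 above. Scaled by the upper quartile, 61.5% of all genes were called higher and 11.6% lower. Mrpl20 (1.39), Mrpl12 (1.33), Mrpl36 (1.29) and Mrpl30 (1.24) were highest, and 3 of these 4 were also among the 4 highest in wild type. Mrpl44 was lowest at -0.33, a ratio of 0.792 (95% interval 0.736 to 0.852), although it was at 0.66 when scaled by the upper quartile. Mrps31 (0.01), Mrpl24 (0.06) and Mrpl48 (0.11) came next, also short of 1.5-fold.

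The irradiation differences of the genes in the 2 genotypes, which share no library, ran in parallel. Pearson's r over 76 genes was 0.93 and Spearman's rho 0.936, beside 0.731 and 0.866 over 7039 genes kept in both. The points share the order of levels and gene-model lengths, and genes are not independent replicates. The genes differed in the same order but by about 0.46 less in cKO: the median of the difference between the responses was -0.46 in log2(FPKM + 1), beside -0.40 over all 7772 genes kept. On that measure 14 of the 77 genes passed 1.5-fold lower, beside 21.9% of all genes, and none passed 1.5-fold higher, beside 9.25%. These counts hung on the scaling: 44 members and 41.8% of all genes were called lower in TPM, 2 and 12.1% by the median of ratios, and 0 members by the upper quartile (2.18% of all genes), by recovered reads, without the 50 most abundant genes and when centred. The widest values were for Mrpl50 (-0.72), Mrps31 (-0.69) and Mrpl12 (-0.68), and the narrowest for Mrps18b (-0.11), Mrps6 (-0.19) and Mrpl11 (-0.25). The smaller response of the members in cKO was close to that of genes in general.

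**Figure D2:**
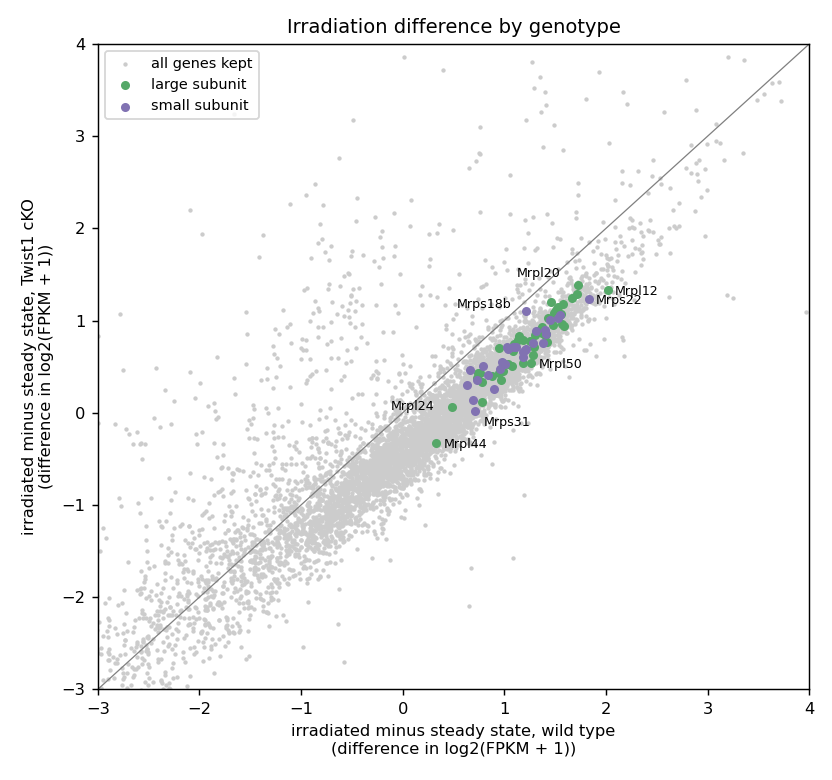
Difference in log2(FPKM + 1) between the irradiated and steady-state library in wild type (horizontal) and cKO (vertical) for 76 mitochondrial ribosomal protein genes, coloured by subunit, over all genes kept in both (grey, those beyond the axes not drawn). The diagonal marks equal differences. The members lie below it and in the upper right except Mrpl44, which is at 0.33 and -0.33.

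Other transcripts moved with irradiation too. The 14 stem cell markers summed to 807 and 701 FPKM at steady state and to 112 and 273 FPKM after irradiation. All 9 kept in wild type were lower, beside 26.9% of all genes kept. The 14 erythroid markers summed to 4105 and 2705 FPKM at steady state and to about 14000 and 16950 FPKM after irradiation. Of those kept, 13 of 13 were higher in wild type and 14 of 14 in cKO, beside 34.9% and 20.8% of all genes. Klf1, the erythroid transcription factor, was at 93.5, 70.0, 703 and 427 FPKM. The erythroid list as a whole differed from Klf1 between the irradiated genotypes, with 7 of 14 markers higher and 3 lower in cKO. Among all genes kept 7.42% were higher and 24.6% lower. Neutrophil markers summed to 2812, 3630, 467 and 1445 FPKM, macrophage markers to 2579, 1357, 1392 and 2696 FPKM, and T and NK cell markers to 386, 380, 90.03 and 152 FPKM. B and plasma cell markers summed to 109300, 65730, 23550 and 55650 FPKM. At steady state all of these sums except those of T and NK cells exceeded the stem cell sums of 807 and 701 FPKM. The source of such transcripts in cells sorted as negative for lineage markers was not tested. The part of these cell types in the differences was not tested, and a different mix of cells and a different amount of RNA per cell cannot be told apart in bulk libraries.

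At steady state the cKO library gave slightly lower levels than wild type on the deposited scale, whereas values rescaled to TPM (each library scaled to the same sum) gave the reverse, a median of 0.105 with 63 of 77 genes above 0. On the deposited scale none of the 76 genes kept reached 1.5-fold in either direction, beside 1.77% higher and 5.51% lower among all 7157 genes kept. The median difference was -0.22 in log2(FPKM + 1) (interquartile range -0.30 to -0.08), beside 0.01 over all genes, and 73 of the 76 lay below that median of all genes. Under the other scalings the median of all genes moved between -0.11 and 0.34, and the members stood 0.22 to 0.24 below it, TPM included. The ratio of FPKM, cKO to wild type, had a median of 0.854. Its counting interval lay below 1 for 56 of the 77 genes, included 1 for 21 and lay above 1 for none. With 1 library per genotype such a shift has no replicate error to be set against. Markers of other cells also differed between these 2 libraries. Neutrophil markers had a median of 0.88 with 7 of 10 called higher in cKO. Macrophage markers had a median of -1.37 with 11 of 12 lower, and B and plasma cell markers -0.67 with 6 of 8 lower. Erythroid markers had a median of -0.48 with 5 of 12 lower, and none of 5 T and NK cell markers was called. The part of these cell types in the shift was not tested.

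Mrpl52, a large subunit protein without a bacterial counterpart, was the lowest at steady state, with 108, 71.8, 298 and 167 FPKM. Its difference of -0.58 came just short of 1.5-fold on the log2(FPKM + 1) scale, and its FPKM ratio was 0.666 (95% interval 0.629 to 0.704). Mrps21 (-0.40), Mrpl57 (-0.39) and Mrpl20 (-0.38) followed. At the other end Mrpl9 was at 10.7, 11.8, 21.9 and 15.4 FPKM, a difference of 0.12 whose ratio of 1.097 had an interval including 1 (0.992 to 1.21). Mrps2 (0.05), Mrpl44 (0.04) and Mrps27 (0.00) did not separate the genotypes either.

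After irradiation the cKO library was lower for all 77 genes on the deposited scale, and for 66 of 77 when scaled by the upper quartile. Of the 77, 63 were at least 1.5-fold lower and none higher, beside 24.6% lower and 7.42% higher among all 6348 genes kept. The median difference was -0.68 in log2(FPKM + 1) (interquartile range -0.74 to -0.61, SD 0.10), beside -0.45 over all genes. Markers of other cells differed between the same 2 libraries: neutrophil markers had a median of 1.60 with 10 of 10 higher in cKO, macrophage markers 0.86 with 12 of 13, B and plasma cell markers 1.003 with 7 of 8, and T and NK cell markers 1.67 with 5 of 6, and their part in the result was not tested. The median ratio of cKO to wild type was 0.622 on the deposited scale and all 77 counting intervals lay below 1. These intervals use the library sizes implied by that scale. In irradiated wild type 24742647 reads in genes stood against an implied size of 22146433, and in irradiated cKO 20346504 against 23450734. Scaled to recovered read totals the median difference was -0.315 in log2(FPKM + 1). Relative to the median of all genes the members stood at -0.23 in both conditions. The 63 calls rest on the deposited scale, on which the median gene was also lower: centred on that median, which was chosen after seeing the data, 0 of 77 were called. Scaled by the upper quartile or to recovered read totals, 0 were called as well, and relative to the median of all genes the members stood between -0.25 and -0.21 under every scaling. Of all genes, 15.0% were then called higher and 0.927% lower by the upper quartile. Against genes of their own mean level the gap on the deposited scale was smaller in most classes. It was -0.22 under 20 FPKM, -0.17 from 20 to 50 FPKM, -0.14 from 50 to 100 FPKM and -0.14 above.

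Mrps24, a small subunit protein of bacterial descent, was lowest after irradiation at 83.0, 67.1, 222 and 122 FPKM, with a cKO to wild type ratio of 0.551 (95% interval 0.530 to 0.573). Mrpl34 (-0.84), Mrpl52 (-0.83) and Mrpl16 (-0.82) followed, so Mrpl52 was among the 4 lowest in both conditions. Mrps6, which overlaps the transporter gene Slc5a3, was nearest to wild type at 42.2, 35.6, 67.2 and 49.7 FPKM, a ratio of 0.738 (0.685 to 0.796). Mrps18b (-0.44), Mrpl9 (-0.49) and Mrps35 (-0.49) were next, and Mrpl9 was among the 4 highest in both conditions. The genotype differences in the 2 conditions share no library and had r = 0.452 and rho = 0.456 over 76 members, against -0.293 and 0.159 over 5733 genes. Among the members both differences also went with gene-model length (rho 0.357 and 0.302) and with mean level (rho -0.506 and -0.451). The part of length and level in this agreement was not tested, and genes are not independent replicates.

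**Figure D3:**
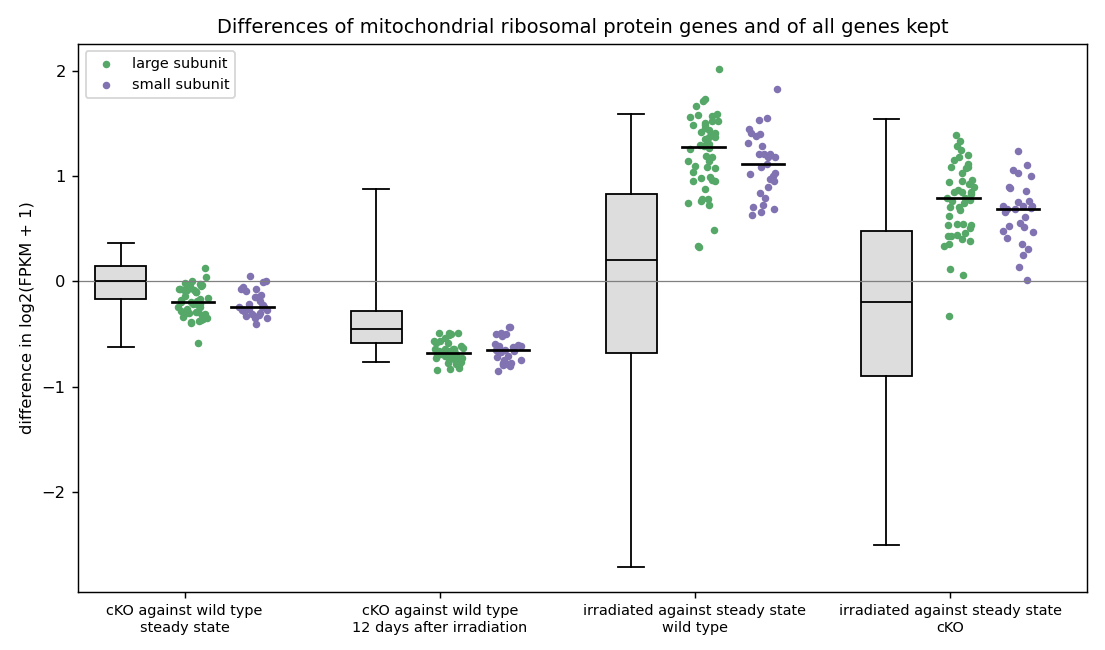
Differences in log2(FPKM + 1) in the 4 comparisons. Boxes show all genes kept (median, quartiles, whiskers at the 5th and 95th percentiles), points the large and small subunit genes kept, and black bars their medians. The member medians are -0.22, -0.68, 1.18 and 0.71 from left to right on the deposited scale, and the first is 0.105 when rescaled to TPM.

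Both subunits shared the direction of each difference on the deposited scale. The medians of large and small subunit genes were -0.20 and -0.24 for cKO against wild type at steady state, and -0.68 and -0.66 after irradiation. For irradiated against steady state they were 1.27 and 1.11 in wild type and 0.79 and 0.69 in cKO. The SDs among all members were 0.13, 0.10, 0.34 and 0.34, and the difference between the subunits was not tested. By calls, 45 of 48 large and 29 of 29 small subunit genes rose in wild type, beside 34.9% of all genes kept. In cKO 31 of 47 and 18 of 29 rose, beside 20.8%. Between the genotypes after irradiation, 40 of 48 large and 23 of 29 small subunit genes were called lower, beside 24.6%. These lower calls became 0 by the upper quartile, by recovered reads and when centred. The 48 genes with a bacterial counterpart and the 29 without one had medians of 1.18 and 1.26 in wild type and 0.71 and 0.67 in cKO.

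The S18 proteins of bacteria have 3 descendants in the mitochondrial ribosome, of which Mrps18a sits in the large subunit. Mrps18a was at 30.1, 25.2, 70.8 and 41.1 FPKM, Mrps18b at 12.2, 9.50, 29.4 and 21.5 FPKM, and Mrps18c at 49.5, 38.8, 102 and 64.1 FPKM. All 3 were higher after irradiation in both genotypes, by 1.21, 1.21 and 1.02 in wild type and by 0.68, 1.1 and 0.71 in cKO. They parted in the genotype comparison after irradiation, where Mrps18a (-0.77) and Mrps18c (-0.66) were called lower and Mrps18b (-0.44) was not. Mrps30, the other protein with a small subunit name in the large subunit, was at 39.3, 39.0, 74.2 and 46.7 FPKM.

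The steady-state difference between the genotypes went with gene-model length across all genes (rho 0.362, 7157 genes) and across the members (rho 0.357, 76 genes). Among genes under 1000 bases the median of all 940 genes was -0.30, and that of the 12 members was -0.29, so short members did not stand apart from short genes in general. In the longer classes the members were lower than other genes of that length, by 0.11 between 1000 and 1500 bases and by 0.17 to 0.20 above. The members' difference went further with mean level, at rho -0.506 at steady state and -0.451 in the irradiated libraries, beside -0.308 and -0.288 over all genes. Against genes of their own level the members' median at steady state was lower by 0.16 under 20 FPKM, by 0.087 from 20 to 50 FPKM, by 0.21 from 50 to 100 FPKM and by 0.085 above, so in 2 of these 4 classes the gap was well under that to the median of all genes. For the genotype difference after irradiation the link with length was weaker over all genes, at rho 0.0676. Over the members it was 0.302, near the 0.357 at steady state. For irradiated against steady state in wild type the members lay above genes of their own length by 0.83 to 1.07 and above genes of their own level by 0.48 to 1.17. In cKO these gaps were 0.54 to 1.01 by length and 0.38 to 1.05 by level.

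**Figure D4:**
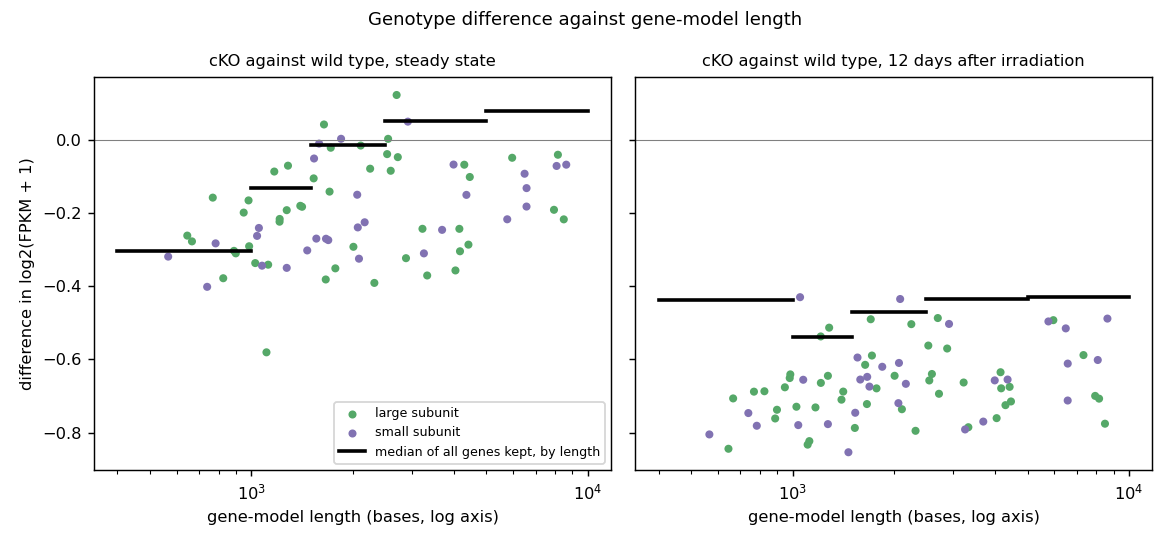
Difference in log2(FPKM + 1) between cKO and wild type against gene-model length (log axis) for the members, at steady state and 12 days after irradiation, with black lines at the median of all genes kept in each length class. The black lines climb with length at steady state, from -0.30 to 0.08, and stay between -0.54 and -0.43 after irradiation.

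Proteins of the particle whose genes are named otherwise were read as a second group of 5. Dap3, Chchd1, Ptcd3, Aurkaip1 and Gadd45gip1 were all called higher after irradiation in both genotypes, with medians of 1.32 in wild type and 0.77 in cKO. Among all genes kept 34.9% and 20.8% were called higher. Chchd1, a small subunit protein, was at 190, 150, 475 and 266 FPKM, and Ptcd3, an RNA-binding protein of the small subunit, at 8.86, 10.5, 24.4 and 17.9 FPKM. Their genotype medians were -0.25 at steady state and -0.71 after irradiation, beside -0.22 and -0.68 for the 77.

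On the deposited scale the genes that serve the mitochondrial ribosome had lower median irradiation differences as groups. The shares over all genes were 34.9% higher and 26.9% lower in wild type and 20.8% and 34.6% in cKO. These groups are also lower in level than the ribosomal proteins. All genes kept with a mean under 20 FPKM had medians of -0.09 in wild type and -0.47 in cKO. Those of 100 FPKM or more had 0.82 and 0.52. The part of level in the lower medians was not tested. Of 10 translation factors kept in wild type, 6 rose after irradiation and none fell, with a median of 0.63, and in cKO 4 rose and 2 fell, with a median of 0.02. Tufm, the elongation factor that delivers aminoacyl-tRNA, was at 52.3, 51.8, 143 and 94.9 FPKM, and its exchange factor Tsfm at 25.5, 20.4, 75.5 and 45.8 FPKM. On the deposited scale Guf1, an elongation factor-like GTPase, and Mtrf1l, a release factor, fell in cKO by 0.80 and 0.65. Of 22 assembly and ribosomal RNA modification genes, 11 rose in wild type, with a median of 0.57, and in cKO 6 of 23 rose and 2 fell, with a median of 0.13. Mpv17l2, which takes part in assembly, rose most at 56.2, 44.7, 176 and 110 FPKM. Mrm1, an rRNA methyltransferase, was at 14.3, 16.1, 9.40 and 6.48 FPKM and fell by 1.20 in cKO on the deposited scale. The cKO median of all genes was -0.20 on that scale and 0.85 by the upper quartile. The falls of Guf1, Mtrf1l and Mrm1 are given on the deposited scale only, so their direction under other scalings is not shown.

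Of 14 mitochondrial aminoacyl-tRNA synthetases kept in wild type, 11 rose and 1 fell, with a median of 0.85, and in cKO 5 of 11 rose and 1 fell, with a median of 0.44. Among those that rose were Gars (1.46), which charges tRNA in the cytosol too, and Yars2 (1.46). The gene that fell was Lars2, for leucine, at 60.2, 29.9, 15.7 and 13.2 FPKM. Its difference was -1.88 in wild type and -1.12 in cKO as deposited, and -1.3 and -0.159 by the upper quartile. Of 19 genes of mitochondrial transcription and mRNA stability, 11 rose, among them Elac2 (1.32), which trims tRNA 3′ ends, and the helicase Supv3l1 (1.25), with a median of 0.72. In cKO 3 of 15 rose and 1 fell, with a median of -0.06. At steady state the 4 groups had medians of 0.02, 0.01, -0.02 and 0.05 for cKO against wild type, at the median of all genes, whereas the ribosomal proteins were at -0.22. The groups also differ in level. Their medians were 6.99, 8.675, 5.945 and 7.497 FPKM in the wild-type steady-state library, against 40.8 FPKM for the ribosomal proteins. Over all genes the steady-state genotype difference went with mean level, at rho -0.308. The difference between these groups was not tested.

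The RNA of the particle went the other way. The small mitochondrial ribosomal RNA mt-Rnr1 was at 112, 75.8, 31.9 and 28.4 FPKM and the large one, mt-Rnr2, at 1076, 962, 419 and 391 FPKM. Both fell after irradiation, by 1.78 and 1.36 in wild type and by 1.39 and 1.30 in cKO, where the protein genes rose. Both also fell under each of the other scalings in wild type, but in cKO the differences were -0.397 and -0.287 by the upper quartile, short of 1.5-fold. The labels do not say whether libraries were selected for polyadenylated RNA or depleted of ribosomal RNA.

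Promoter sequence was looked at because the genes moved together. RefSeq windows (GRCm38.p6) of 300 bases, from 250 before to 50 after the start, were matched to 68 of the 77 genes, and all 27025 genes with a window served for comparison. The following 120 bases before the start belong to the 6 genes with the highest mean irradiation difference, then to Mrpl44, which differed least, and Mrps11, which shares its promoter with Mrpl46. The last 2 were chosen after their values were seen. Capitals mark the letters GCGCA, any base and GCGC in a row (core of NRF1, a regulator of nuclear genes for mitochondria), CCGGAAG (ETS family core), ATGGCGGC (YY1 core) and CACGTG (E-box of the Myc type) on either strand. Each sequence is given 5′ to 3′ on the strand of its gene. The intervals are chr11:120484517-120484636 (+) for Mrpl12, chr4:155802758-155802877 (+) for Mrpl20, chr9:98601680-98601799 (-) for Mrps22, chr13:73330889-73331008 (+) for Mrpl36, chr1:37890357-37890476 (+) for Mrpl30, chr11:59202366-59202485 (+) for Mrpl55, chr1:79775898-79776017 (+) for Mrpl44 and chr7:78783011-78783130 (+) for Mrps11.
Mrpl12: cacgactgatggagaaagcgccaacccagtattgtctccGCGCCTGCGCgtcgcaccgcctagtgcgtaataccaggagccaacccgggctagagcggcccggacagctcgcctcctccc
Mrpl20: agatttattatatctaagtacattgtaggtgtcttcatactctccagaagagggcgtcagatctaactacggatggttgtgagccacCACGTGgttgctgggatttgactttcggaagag
Mrps22: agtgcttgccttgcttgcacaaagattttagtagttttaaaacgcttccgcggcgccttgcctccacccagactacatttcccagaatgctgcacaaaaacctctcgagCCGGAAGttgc
Mrpl36: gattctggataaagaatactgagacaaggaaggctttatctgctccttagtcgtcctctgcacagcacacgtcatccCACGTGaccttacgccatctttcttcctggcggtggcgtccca
Mrpl30: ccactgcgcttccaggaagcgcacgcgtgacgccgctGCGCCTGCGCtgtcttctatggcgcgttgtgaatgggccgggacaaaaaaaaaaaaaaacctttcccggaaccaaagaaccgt
Mrpl55: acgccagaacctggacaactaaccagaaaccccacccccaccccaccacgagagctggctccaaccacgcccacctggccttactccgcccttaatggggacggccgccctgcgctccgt
Mrpl44: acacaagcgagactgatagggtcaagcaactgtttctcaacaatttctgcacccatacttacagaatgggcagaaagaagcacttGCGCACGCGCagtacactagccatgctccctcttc
Mrps11: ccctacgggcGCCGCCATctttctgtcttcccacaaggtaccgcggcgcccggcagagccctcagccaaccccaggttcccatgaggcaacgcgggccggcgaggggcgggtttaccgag

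Mrpl12 and Mrpl30, both among the 4 genes that rose most in cKO, hold the NRF1 core, and so does Mrpl44 at the other end of the order. Mrpl20 and Mrpl36 hold CACGTG, Mrps22 the ETS core, Mrps11 the YY1 core, and Mrpl55 none of the 4. Over the 68 genes, the NRF1 core was in the windows of 13 (19.1%), beside 5.19% of all genes and 13.1% of genes at 5 FPKM or more in any library. The ETS core was in 25 (36.8%), beside 9.93% and 23.9%, and the YY1 core in 11 (16.2%), beside 2.60% and 6.50%. The GC box GGGCGG was in 34 genes (50%), beside 38.2% and 67.9%, CCAAT in 38.2%, beside 41.1% and 43.6%, and TATAAA in 7.35%, beside 15.7% and 8.59%. A match is a description of the letters and not a bound site.

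Twist1 belongs to the basic helix-loop-helix family, whose members bind variants of CANNTG. That pattern, which contains CACGTG and CATATG, was in 64.7% of the 68 genes, beside 75% of all genes and 66.4% of genes at 5 FPKM or more. CATATG was in 1 of 68 genes, Mrpl49 (1.47%), beside 4.48% and 1.96%. CACGTG was in 5 (Mrpl2, Mrpl20, Mrpl36, Mrpl37 and Mrps18c; 7.35%), beside 8.09% and 12.4%. Genes with and without the NRF1 core had median irradiation differences of 1.03 and 1.21 in wild type, those with and without the ETS core 1.21 and 1.26, and those with and without the YY1 core 1.26 and 1.19. The 5 genes with CACGTG had a median of 1.59 against 1.19 for the other 63, with no test.

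**Figure D5:**
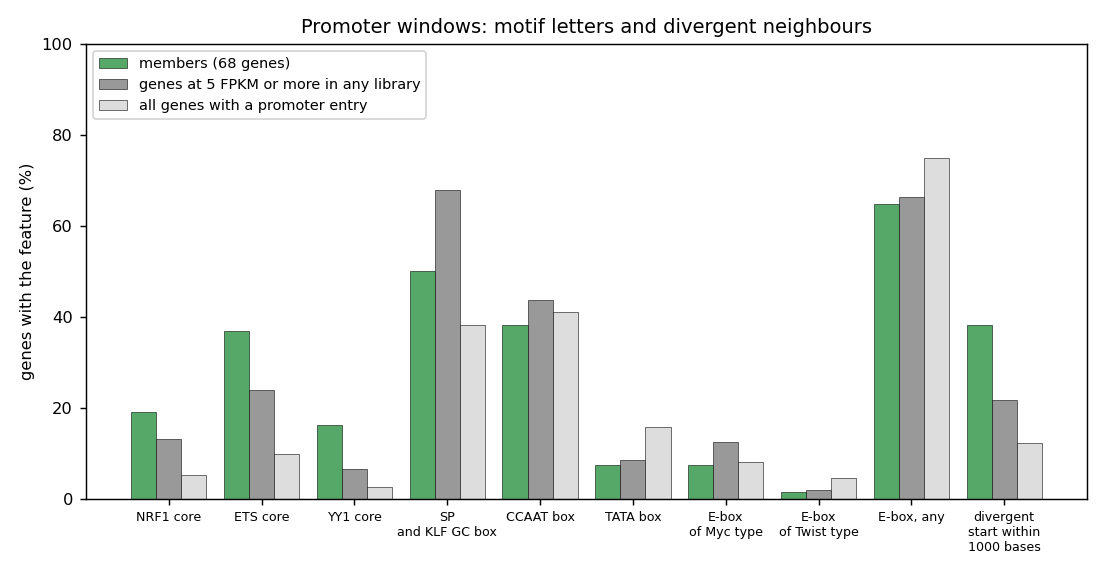
Percentage of genes whose promoter window holds each motif, or that have a divergent start within 1000 bases, for 68 members, for genes at 5 FPKM or more in any library and for all genes with a window. The bars for the members exceed both others for the NRF1, ETS and YY1 cores and for divergent starts.

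A divergent neighbour, a gene starting on the other strand within 1000 bases, was found for 26 of the 68 genes (38.2%), beside 12.3% of all genes and 21.6% of those at 5 FPKM or more. Mrpl46 and Mrps11, 1 protein of each subunit, start 42 bases apart. Mrpl46 was at 63.0, 55.4, 164 and 102 FPKM and Mrps11 at 23.2, 19.7, 64.9 and 40.5 FPKM, with differences of 1.37 and 1.45 in wild type and 0.86 and 1.003 in cKO. Mrps12 starts 147 bases from Sars2, the mitochondrial seryl-tRNA synthetase, which was at 5.44, 5.29, 11.7 and 9.41 FPKM. Mrpl49 starts 192 bases from Fau, a protein of the cytosolic ribosome, which was at 302, 221, 819 and 466 FPKM.

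Neighbours did not always move alike. Klc4, a kinesin light chain next to Mrpl2, was at 9.53, 8.86, 2.45 and 2.26 FPKM, where Mrpl2 was at 105, 99.2, 319 and 191 FPKM. For 17 genes whose neighbour reached 5 FPKM, the neighbours had a median of 0.98 in wild type with 11 higher and 3 lower. The mitochondrial ribosomal protein genes had a median of 1.38 with 17 higher, beside 34.9% higher and 26.9% lower among all genes kept. In cKO the medians were 0.65 and 0.94. There 9 neighbours were higher and 4 lower, and 14 members higher and 0 lower, beside 20.8% and 34.6% of all genes kept. For cKO against wild type at steady state the medians were -0.09 for neighbours and -0.24 for members. Mrpl46 and Mrps11 each enter on both sides of these counts.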

How the data were processed

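RNA-seq of 4 libraries was used, 1 per group, so samples were not averaged. The authors deposited 1 table per library with FPKM for 30409 Ensembl identifiers, of which 30231 were given a symbol from a RefSeq table, and 6 identifiers that share a symbol with a more abundant one were left out. Per the submitters' processing notes the build was mm10 and the tools, for ATAC-seq and RNA-seq together, included BWA 0.7.12-r1039 and Bowtie. The RNA-seq aligner, the counting method and its strand are not given in the sources used here. ATAC-seq (2 samples) was not analysed here. Members and gene lists were chosen with earlier results of these data known.

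Differences were taken in log2(FPKM + 1), which understates changes of low genes, for genes reaching 5 FPKM in the higher of the 2 libraries (the highest of 4 for the difference of responses), and called at 1.5-fold on that scale. Named genes are the 4 highest and 4 lowest members in each comparison, the 3 highest and 3 lowest for the difference of responses, the 5 highest and lowest by mean level, the S18 paralogues, Mrps30, the stalk and tunnel exit genes, and up to 4 genes of each other list; some genes the rule takes in are not reported here. Reads were recovered from the FPKM, which are whole multiples of the value of 1 read: whole numbers were found for 99.99% of 29934 genes above 0. In data simulated from these libraries 96.8% of 1425 genes with at least 400 reads came back exact. The implied library sizes were 26031985, 25239648, 22146433 and 23450734. Ratio intervals are conditional exact binomial 95% intervals on these implied sizes, share intervals Clopper-Pearson. The irradiated wild-type library held more reads in genes (24742647) than its implied size. Reads without molecular identifiers are not independent molecules. Alternatives were 2 pseudocounts, 3 minimum levels, 5 scalings, the mean for the median, Mrps18a and Mrps30 moved to the large subunit, and, chosen after seeing the data, centring on the median of all genes. Python 3.11.15, numpy 2.4.6, pandas 2.3.3 and scipy 1.17.1 were used.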

Additional observations from a re-analysis of the deposited data

Results flagged for a closer look

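Mrpl44 (chr1:79776018-79781445, GRCm38) moved in opposite directions after irradiation in the 2 genotypes: its levels were 40.8 and 51.6 FPKM in wild type and 42.1 and 33.3 FPKM in cKO, and the response in cKO minus that in wild type was -0.657 in log2(FPKM + 1). The counting intervals of both ratios exclude 1, at 1.18 to 1.35 in wild type and 0.736 to 0.852 in cKO, but the difference was not tested, since each group held 1 library. The opposite signs depend on the scaling: scaled by the upper quartile the differences were 0.915 and 0.661, and with the 50 most abundant genes left out -0.0681 and -0.39. Mrpl44 overlaps Wdfy1, which was at 5.35, 4.29, 1.57 and 1.54 FPKM, and the part of shared reads was not tested.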

How the results depend on the processing

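Of 169 values recomputed under 13 alternatives, 126 stayed within counting error (for counts, within 1.5 times), 42 did not and 1 reversed. Many of the 42 are small moves, since counting error is narrow at this depth. The reversed value was the median for cKO against wild type at steady state, 0.105 when rescaled to TPM; it was -0.104 by the upper quartile, -0.353 with the 50 most abundant genes left out and -0.0895 scaled to recovered reads. After irradiation that median was -0.573 by the median of ratios, -0.150 by the upper quartile, -0.494 in TPM, -0.471 without the 50 genes, -0.315 by reads and -0.226 centred, and the 63 calls became 32, 0, 14, 8, 0 and 0. The 0 calls at steady state became 1 with a pseudocount of 0.1, without the 50 genes and centred. For irradiated against steady state in wild type the median was 1.08 with a pseudocount of 5, 1.34 by the median of ratios, 1.77 by the upper quartile, 1.27 in TPM, 0.815 without the 50 genes, 0.987 by reads and 0.979 centred. In cKO it was 0.967, 1.71 (77 calls), 0.629 in TPM and 0.910 centred. The difference of responses was -0.0691 by the upper quartile, -0.607 in TPM, -0.133 without the 50 genes, -0.231 by reads and -0.058 centred. The ratio of large to small subunit medians at steady state was 1.35 and 1.38 as a ratio of means (wild type, cKO) and 1.70 with Mrps18a and Mrps30 moved. Without the 50 genes the share of summed FPKM was 1.31, 1.27, 2.57 and 2.05%. The cause was not tested for these moves. No paired analysis was possible because each group held 1 library. For the same reason no library could be left out.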
